A study of Mus musculus with 4 samples.

Results

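Platelet-derived growth factor (PDGF) signalling was described through its 2 receptor genes, Pdgfra and Pdgfrb, and 3 of its ligand genes, Pdgfa, Pdgfc and Pdgfd. These 5 members, chosen by symbol, were all found among the 16305 genes of the deposited tables. The tables hold single cells sorted as cancer-associated fibroblasts from 4 colon tumours of the line that the labels name APTKA, grown orthotopically in female C57BL6J mice and left untreated. Each tumour filled 1 plate of 384 wells, meant to hold 1 cell per well, and the 4 plates form a single labelled group. The labels give neither the mice behind the tumours nor the gate of the sort, so a gate on a PDGF receptor could set the shares below. With a single labelled group, all comparisons were made between kinds of cells within the same tumours, and such a gate could bear on them too. The p-values rest on 2 to 4 plates per group. Tests of summed counts share 1 estimate of the spread over all groups fitted together.

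PDGF ligands are secreted dimers that bind 2 receptor tyrosine kinases. PDGFRα, encoded by Pdgfra, is bound by PDGF-A and PDGF-C among others, and PDGFRβ, encoded by Pdgfrb, by PDGF-B and PDGF-D. PDGF-C and PDGF-D are made as latent forms that proteases must cut before they bind. In the gut wall, PDGFRα marks fibroblasts and interstitial cells of the muscle layers, while PDGFRβ is known above all from pericytes, the contractile cells around small vessels, which are recruited by PDGF-B from endothelium.

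Of 1536 wells, 740 were used: wells under 1000 transcripts, or with more than 30% of them mitochondrial, were left out. The kept wells numbered 43, 250, 243 and 204 in tumours 1 to 4, with medians of 5552, 8516, 8108 and 9474.5 transcripts. Tumour 1 was the poorest plate, with 43.95% spike-in transcripts against 5.54 to 8.59% in the others, and it was sequenced in another run, so run and tumour 1 cannot be told apart. Levels are transcripts of a gene per 10000 transcripts. Because each transcript is tagged once at its 3′ end, these levels need no correction for gene length and were compared between genes. Whether different genes are captured and mapped equally well was not checked, so ratios between genes are ratios of counts.

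Wells were grouped by markers that include no member. Wells with at least 5 of 8 fibroblast markers (Col1a1, Dcn, Lum and others) that fell in no mural or interstitial group were taken as fibroblast-like. They numbered 562 (29, 199, 186 and 148 in tumours 1 to 4). They were not free of other markers: 86 held at least 3 smooth muscle markers and 40 at least 3 pericyte markers. The group called mural joined smooth muscle-like and pericyte-like wells and came to 64 wells (6, 23, 17 and 18). Of these, 39 were smooth muscle-like (Myh11, Des, Cnn1) and 25 pericyte-like (Rgs5, Notch3, Kcnj8). Des alone did not separate them, as 21 of the 39 and 21 of the 25 wells held it. The smooth muscle markers were not chosen to separate muscle of vessels from muscle of the gut wall. Among the interstitial cells of the muscle layers, 16 wells were Cajal-like, with at least 3 transcripts each of the pacemaker genes Kit and Ano1. A further 65 muscle interstitial-like wells held at least 3 of the 5 markers P2ry1, Kcnn3, Cacna1g, Adra1a and Adcyap1r1, and 33 wells stayed unassigned. Within the fibroblast-like wells, 47 were telocyte-like by Foxl1, Sox6, Bmp5, Bmp7, F3 and Wnt5a. Foxl1 was in 20 of the 47 and Bmp5 in 44. At least 3 of 5 contractile markers such as Acta2 were in 43 of them, beside 271 of all 562 fibroblast-like wells. Below, the groups are written without "-like". Groups were summed within a plate and used where a plate had at least 5 wells, which left 4 plates for fibroblast, mural, smooth muscle and telocyte wells, 3 for muscle interstitial wells (tumours 2, 3 and 4), and 2 for pericyte (tumours 2 and 4) and Cajal wells (tumours 3 and 4).

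The groups were not free of other signals. Fibroblast markers summed to 104 to 415 per 10000 over the plates in mural wells, against 443 to 598 in fibroblast wells. In the pericyte wells of tumour 2 they reached 507. Smooth muscle markers summed to only 19.7 per 10000 in the smooth muscle wells of tumour 2, against 117 to 140 in the other plates. Pericyte markers summed to 2.02, 13.2, 17.0 and 5.44 per 10000 in the smooth muscle wells of tumours 1 to 4. At least 3 pericyte markers were present in 17 of these 39 wells. Conversely, 18 of 25 pericyte wells held at least 3 smooth muscle markers. The median of Des was 0.656 per 10000 in smooth muscle and 3.92 in pericyte wells. Over all wells of a group its level ran the other way, at 11.2 per 10000 in smooth muscle and 4.14 in pericyte wells. The median share of mitochondrial transcripts was 8.61% in mural and 5.70% in fibroblast wells. The part of these signals in the results was not tested. The 6 immune markers found in the files were at 0 in mural wells, as were the endothelial markers Pecam1, Cdh5, Kdr and Cldn5. The endothelial markers Emcn, Esam, Flt1 and Vwf were present there. All 8 endothelial markers summed to 1.27 to 2.67 per 10000 in mural wells, above the 0.0404 to 0.275 of fibroblast wells. No well was removed as a doublet.

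The receptors divided the cells by kind. Fibroblast and muscle interstitial wells carried mostly Pdgfra, pericyte wells almost only Pdgfrb, smooth muscle wells little Pdgfra and, by marker groups, about as much Pdgfrb as fibroblast wells, and Cajal wells low counts of both. Pdgfra lies on chromosome 5 (chr5:75152292-75198215, plus strand, mm10, GENCODE M21, protein coding). Its fibroblast level was 7.13, 4.40, 5.99 and 6.06 per 10000 in tumours 1 to 4 (5.89 ± 1.12, mean ± SD, n = 4). Without Rn45s, a ribosomal RNA gene, in the totals, the 4 levels were 7.31, 5.71, 6.77 and 6.80. Mural wells held 0.348, 0.739, 0.356 and 0.372 per 10000. All 4 mural values lay far below all 4 fibroblast values, and the tumour 2 value, the highest, came largely from single wells: of its 32 Pdgfra UMIs (unique molecular identifiers, the molecules counted), 11 were in 1 smooth muscle well and 9 in 1 pericyte well.

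Pdgfra changed most between mural and fibroblast wells among the members tested, and Pdgfc is a ligand described below, so the 250 bases before their RefSeq starts (GRCm38.p6, which is mm10) are shown, both on the plus strand and clear of GENCODE exons. The window of Pdgfra is chr5:75152001-75152250 and that of Pdgfc chr3:81036166-81036415. Capitals mark a match to CANNTG, the E-box.
Pdgfra: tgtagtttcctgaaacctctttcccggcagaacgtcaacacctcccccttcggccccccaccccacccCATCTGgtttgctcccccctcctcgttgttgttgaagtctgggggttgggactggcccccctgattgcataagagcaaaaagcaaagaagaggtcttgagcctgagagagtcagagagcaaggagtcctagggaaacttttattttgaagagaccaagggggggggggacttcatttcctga
Pdgfc: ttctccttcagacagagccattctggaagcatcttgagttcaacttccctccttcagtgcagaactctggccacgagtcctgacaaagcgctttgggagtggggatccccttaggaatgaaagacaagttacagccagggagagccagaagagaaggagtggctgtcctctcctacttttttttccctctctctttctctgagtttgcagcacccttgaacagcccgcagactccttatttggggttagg
The window of Pdgfra held 1 match to CANNTG and that of Pdgfc none, while 66.2% of all 32851 windows of this length hold at least 1. Neither window matched GGGCGG, the GC box, on either strand, which 32.7% of all windows hold. Likewise neither matched TATAAA, the TATA box (12.4% of all windows). The same was true of CCAAT, held by 33.8%. They had 4 and 3 CG pairs, against a median of 6 over all windows.

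Pdgfrb ran the other way. Its fibroblast level was 1.25, 1.09, 1.86 and 1.65 per 10000 (1.46 ± 0.356, n = 4). Mural wells held 2.79, 3.77, 5.61 and 9.39 (5.39 ± 2.91, n = 4), so each mural value lay above each fibroblast value, though the mural values spread widely. A single well gave 17 of the 24 mural Pdgfrb UMIs in tumour 1 and another 59 of the 110 in tumour 3. On summed counts with the tumour as a block, Pdgfra was lower in mural than in fibroblast wells by a log2 fold change of -3.63 (SE 0.38, edgeR quasi-likelihood test, adjusted p = 1.17e-05). Pdgfrb was higher by 1.69 (SE 0.24, adjusted p = 0.000220, edgeR). Beside these, 11.7% of the 5825 genes tested were called in either direction, 5.17% as higher in mural wells and 6.49% as lower. Both calls held without each tumour in turn, with changes of -4.29 to -3.43 for Pdgfra and 1.43 to 1.88 for Pdgfrb. PDGFRα is known from fibroblasts and PDGFRβ from pericytes, and the lists were chosen with earlier results of these data known. Both differences were thus likely from the choice of groups, and their tests are no independent support.

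**Figure D1:**
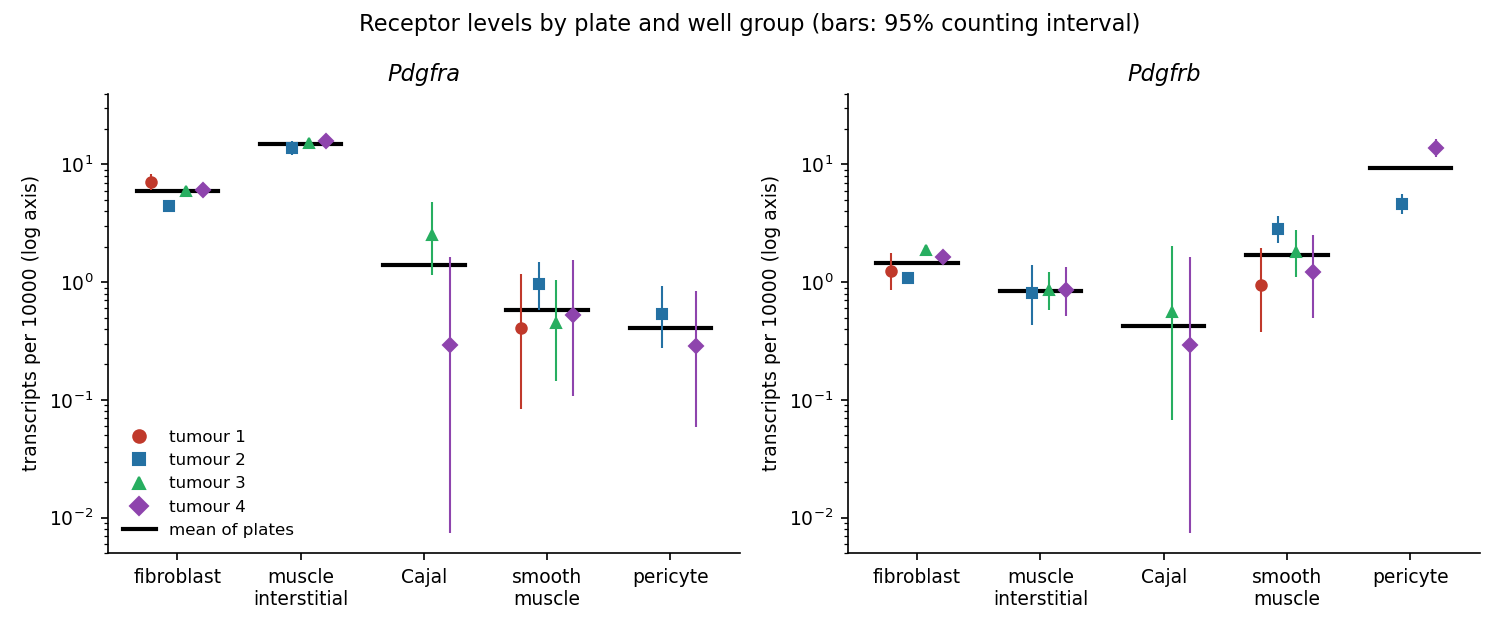
Levels of Pdgfra (left) and Pdgfrb (right) in transcripts per 10000 on a log axis for 5 groups of wells. Points are plates with at least 5 wells, coloured by tumour, with 95% Poisson counting intervals, and black lines are means of plates. Muscle interstitial wells sit highest for Pdgfra (13.9 to 15.7) and pericyte wells for Pdgfrb (4.64 and 13.9).

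The balance was expressed as the percentage of Pdgfra among the transcripts of both receptors. It was 85.04, 80.2, 76.2 and 78.6% in the fibroblast wells of tumours 1 to 4 (80.01 ± 3.72%, n = 4), which is 3.21 to 5.69 Pdgfra transcripts for each of Pdgfrb. In mural wells it was 11.1, 16.4, 5.96 and 3.81% (9.32 ± 5.63%, n = 4), or 5.10 to 25.2 Pdgfrb transcripts for each of Pdgfra. The difference averaged -70.7 percentage points (SD 5.01) and was negative in 4 of 4 plates (exact paired permutation test, two-sided, p = 0.125, the smallest that 4 plates allow). Over all kept wells of a plate the percentage was 75.8, 75.1, 77.2 and 75.8% in tumours 1 to 4. This lay below the value of the fibroblasts, the most frequent group, in tumours 1, 2 and 4 and above it in tumour 3.

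**Figure D2:**
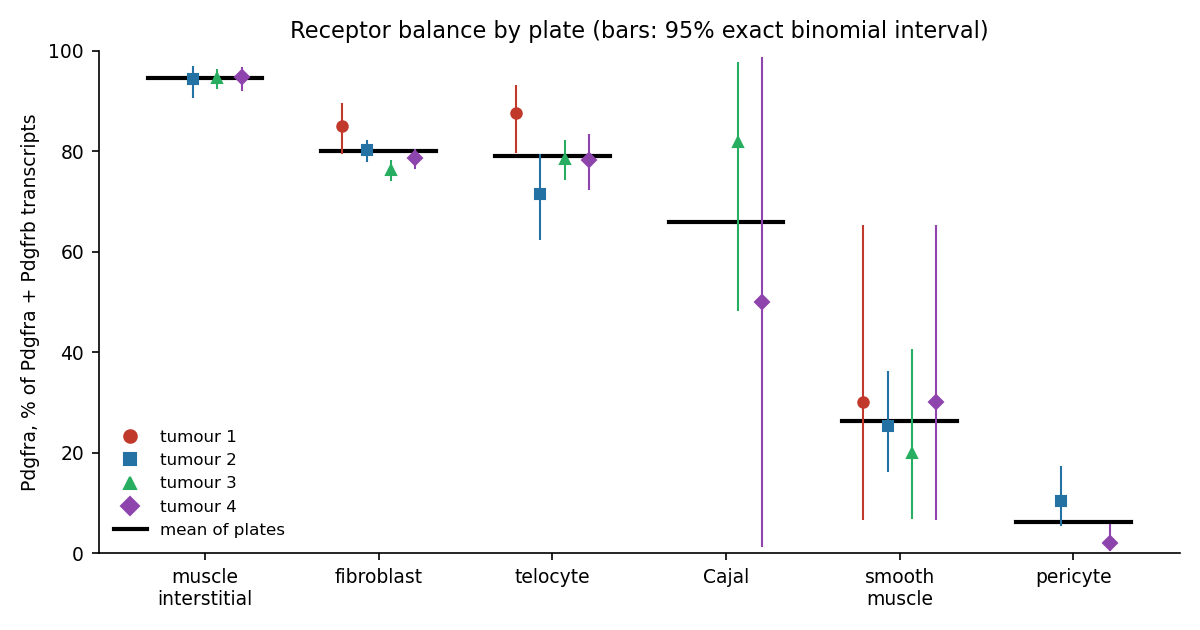
Percentage of Pdgfra among Pdgfra and Pdgfrb transcripts (y axis) in 6 groups of wells (x axis). Points are plates, coloured by tumour, with 95% Clopper-Pearson intervals that cover counting error only, and black lines are means. Muscle interstitial plates lie at 94.5 to 94.8%, smooth muscle plates at 19.99 to 30% and pericyte plates at 10.3 and 2.04%.

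The same division was visible well by well. Of 562 fibroblast wells, 285 held transcripts of both receptors, 163 of Pdgfra only, 38 of Pdgfrb only and 76 of neither. More Pdgfra than Pdgfrb was found in 386 of them and more Pdgfrb in 79. Among pericyte wells, 25 of 25 held Pdgfrb, 6 also held Pdgfra, and 24 had more Pdgfrb. All 65 muscle interstitial wells held Pdgfra and all had more Pdgfra than Pdgfrb. Of 39 smooth muscle wells, 17 held neither receptor.

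Depth differed between groups (median 11652 transcripts in pericyte and 6601 in smooth muscle wells), so each well was also thinned to 3000 UMIs, which left out 98 fibroblast, 13 smooth muscle and 1 muscle interstitial well. Pdgfra was then present in 70.9% of fibroblast, 89.1% of muscle interstitial, 2 of 25 pericyte and 0 of 26 smooth muscle wells, where a count of 0 allows up to 11.5%. Unthinned, these were 79.7%, all 65, 6 of 25 and 12 of 39 wells. Thinned, Pdgfrb was present in 32.5% of fibroblast, 23.4% of muscle interstitial, 22 of 25 pericyte and 8 of 26 smooth muscle wells. Unthinned, it was in 57.5 and 47.7% of the former groups and in 25 of 25 and 17 of 39 wells. Thinned fibroblast wells held both receptors in 22.2% of cases, beside 23.1% for the product of the separate shares.

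**Figure D3:**
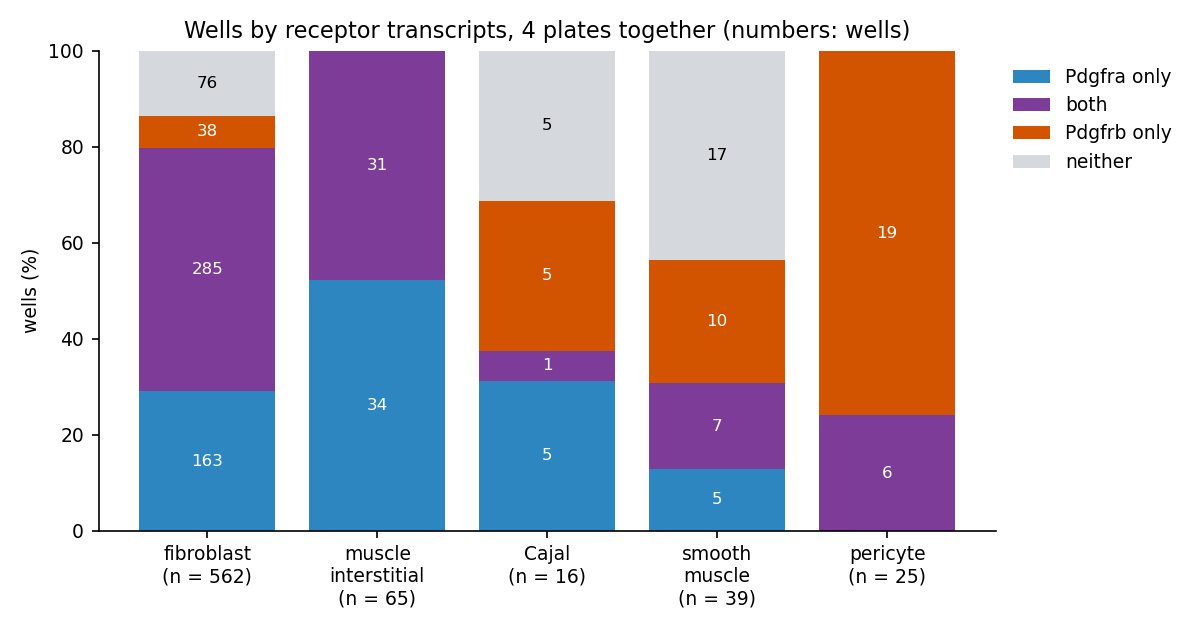
Wells (%, y axis) that held transcripts of Pdgfra only, of both receptors, of Pdgfrb only or of neither, for 5 groups over the 4 plates together. Numbers in the bars are wells at full depth; 19 of 25 pericyte wells held Pdgfrb only and 34 of 65 muscle interstitial wells Pdgfra only.

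Muscle interstitial cells, the cells that relay inhibitory nerve signals to gut muscle, had the highest Pdgfra levels of the groups compared. These cells are known for PDGFRα, and the lists were chosen with earlier results of these data known. A high level was thus likely from the choice of group, and its test is no independent support. The level was 13.9, 15.1 and 15.7 per 10000 in tumours 2 to 4 (14.9 ± 0.938, n = 3), and the single such well of tumour 1 held 17 UMIs, or 9.51 per 10000. Every plate lay above every fibroblast plate. The log2 fold change over fibroblasts was 1.33 (SE 0.34, edgeR, adjusted p = 0.0293), where 6.33% of 5825 genes were called in either direction, 3.4% higher and 2.94% lower. The call was lost without tumour 2 (adjusted p = 0.0634), tumour 3 (0.153) or tumour 4 (0.134), with changes of 1.27 to 1.33, by edgeR, and without the tumour as a block (1.35, adjusted p = 0.0662). With cluster groups the change was 1.69 (adjusted p = 0.000298, edgeR). Pdgfrb was 0.813, 0.860 and 0.855 per 10000 (0.843 ± 0.0257, n = 3), and its change of -1.001 (SE 0.30) was not called (adjusted p = 0.0620, edgeR). The balance was 94.5, 94.6 and 94.8%, which is 17.04 to 18.4 Pdgfra transcripts for each of Pdgfrb. It was 16.3 percentage points (SD 2.04) above that of fibroblasts and higher in 3 of 3 plates (exact paired permutation test, two-sided, p = 0.25, the smallest that 3 plates allow). Fibroblast markers summed to 493 to 755 per 10000 in these wells.

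Cajal cells, the pacemakers of gut movement, were tested on 5 wells in each of tumours 3 and 4, which held 10 Pdgfra and 3 Pdgfrb UMIs in all. Pdgfra was 2.53 and 0.292 per 10000 and Pdgfrb 0.563 and 0.292. The fitted log2 changes against fibroblasts were -2.59 for Pdgfra (SE 0.58, adjusted p = 0.0102) and -2.67 for Pdgfrb (SE 0.63, adjusted p = 0.0134), both by edgeR, where 9.15% of genes were called in either direction, 2.9% higher and 6.25% lower. By counting alone, fibroblast wells of the same plates held 4.08 times as much Pdgfrb as Cajal wells, with a 95% interval of 1.39 to 19.8, and 4.19 times as much Pdgfra (2.28 to 8.75). With DESeq2 the call for Pdgfrb was lost (adjusted p = 0.0526). The balance, 81.8 and 50%, lay above the fibroblasts in 1 plate and below in the other, a mean difference of -11.5 points (exact paired permutation test, two-sided, p = 1, smallest possible 0.5). Of the 16 Cajal wells in all 4 plates, 5 held only Pdgfra, 5 only Pdgfrb, 1 both and 5 neither.

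Within the mural wells, Pdgfrb was higher in pericytes than in smooth muscle. As pericytes are known for PDGFRβ, this too was likely from the choice of groups, and its test is no independent support. Smooth muscle wells held 0.944, 2.83, 1.80 and 1.23 per 10000 in tumours 1 to 4 (1.70 ± 0.833, n = 4), beside 1.46 ± 0.356 in fibroblast wells. Of the 59 UMIs in tumour 2, 28 came from 1 well, and by cluster groups the 4 levels were lower, at 0.921, 0, 1.38 and 0.251. Pericyte wells held 4.64 and 13.9 in tumours 2 and 4, and the 4 pericyte wells of tumour 3, too few for the test, 10.6. The log2 fold change was 2.10 (SE 0.43, edgeR, adjusted p = 0.0329), in a comparison in which 0.464% of 6036 genes were called in either direction, 0.166% higher and 0.298% lower. The call was lost without tumour 1 (adjusted p = 0.0573) and without tumour 3 (0.0714), by edgeR. It was also lost with 1 marker more per group (0.0596), at a transcript minimum of 2000 (0.0518), without wells that held the red cell gene Alas2 (0.0771) and in a fit of these 2 groups alone (0.302), all by edgeR, with changes of 1.94 to 2.004. With groups taken from clusters of the wells, made without the members, the change was 3.58 (adjusted p = 1.54e-07, edgeR). Pdgfra was low in both, at 0.405, 0.958, 0.449 and 0.526 in smooth muscle and 0.536 and 0.288 in pericyte wells, with a change of -0.46 (SE 0.61) that was not called (adjusted p = 0.840, edgeR). The balance was 30, 25.3, 19.99 and 30% in smooth muscle (26.3 ± 4.77%, n = 4) and 10.3 and 2.04% in pericyte wells, lower in 2 of 2 plates by 21.5 points on average (exact paired permutation test, two-sided, p = 0.5, the smallest that 2 plates allow).

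Telocytes, fibroblasts under the epithelium that are known for high PDGFRα, had no receptor change that was called by marker groups with at least 5 wells per sum. Their wells were deeper, with a median of 13358 transcripts against 8692 in the other fibroblasts. Pdgfra was 9.28, 5.01, 10.3 and 10.3 per 10000 (8.72 ± 2.52, n = 4) beside 5.71, 4.36, 5.21 and 5.70 in the other fibroblasts (5.25 ± 0.637, n = 4). It was higher in 4 of 4 plates, but its change of 0.63 (SE 0.31) was not called (adjusted p = 0.301, edgeR), nor was that of Pdgfrb, 0.64 (SE 0.24, adjusted p = 0.1396, edgeR). In this comparison 7.28% of 5124 genes were called in either direction, 3.47% higher and 3.81% lower. The balance was 87.5, 71.6, 78.5 and 78.3% (78.96 ± 6.55%), a mean difference of -0.445 points (SD 6.37) from the other fibroblasts, higher in 2 of 4 plates (exact paired permutation test, two-sided, p = 0.875). The outcome for Pdgfrb depended on the setting. With at least 10 wells per sum its change was 0.78 and was called (adjusted p = 0.0434, edgeR). With cluster groups, in which 129 wells counted as telocytes, its change was 1.24 (adjusted p = 0.000780, edgeR), and with 1 marker more required it was -0.30 (adjusted p = 0.843, edgeR).

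The balance was also read in fibroblast states, which may overlap. It averaged 82.9 ± 3.76% (n = 4) in the 148 fibroblast wells with at least 3 of 5 adventitial markers such as Pi16. It was 77.6 ± 4.47% (n = 4) in the 162 with at least 4 of 5 contractile markers such as Acta2, and 80.3 ± 2.33% (n = 3) in the 165 with at least 3 of 5 inflammatory markers such as Il6 and Cxcl1. The ranges over plates overlapped between these 3 sets. The 13 wells with at least 3 of 6 cycling markers such as Mki67 spread most, with 84.1% in tumour 2, 62.9% in tumour 4, 46.1% in the single well of tumour 3 and 64.9% over all. Depth differed: the median was 20368 transcripts in adventitial, 15344 in contractile, 16578 in inflammatory and 32382 in cycling wells, against 9158 in fibroblast wells. No test was made among the states.

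Ordered by mean level per 10000, Pdgfra ran from muscle interstitial (14.9) over telocyte (8.72), other fibroblast (5.25) and Cajal wells (2.53 and 0.292) to smooth muscle (0.585) and pericyte wells (0.536 and 0.288). Of neighbours in this order, the plates of telocytes and other fibroblasts, of Cajal and smooth muscle wells, and of smooth muscle and pericyte wells overlapped. Pdgfrb ran from pericyte over telocyte (2.25), smooth muscle (1.70), other fibroblast (1.37) and muscle interstitial (0.843) to Cajal wells. Here telocyte and smooth muscle wells overlapped, and so did smooth muscle wells and the other fibroblasts.

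Among the ligands, Pdgfa, a ligand of PDGFRα, was higher in mural wells, which held little Pdgfra. The gene lies at chr5:138976014-138997370 on the minus strand (protein coding). Its level was 0.202, 0.326, 0.471 and 0.416 per 10000 in fibroblast wells (0.354 ± 0.117, n = 4) and 0.232, 2.06, 1.73 and 2.92 in mural wells (1.73 ± 1.12, n = 4). The mural value exceeded the fibroblast value in each tumour, by little in tumour 1, where the 6 mural wells held 2 UMIs. The log2 fold change was 2.23 (SE 0.33, edgeR, adjusted p = 0.000323), and it was 2.01 to 2.41 without each tumour in turn. Of the 25 pericyte wells 21 held Pdgfa, as did 15 of 39 smooth muscle and 97 of 562 fibroblast wells. After thinning it was in 14 of 25, 7 of 26 and 8.62% of wells.

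Between pericyte wells (1.65 and 3.65 per 10000 in tumours 2 and 4) and smooth muscle wells (0.270, 2.49, 0.898 and 1.58), Pdgfa was not called, with a change of 0.54 (SE 0.50, adjusted p = 0.740, edgeR). Of the 52 smooth muscle UMIs in tumour 2, 25 came from 1 well. With cluster groups the change was 2.20 and was called (adjusted p = 0.00137, edgeR). In muscle interstitial wells Pdgfa was 0, 0.201 and 0.0900 per 10000, where the 0 of tumour 2 allows up to 0.188, and its change of -1.88 from fibroblasts (SE 0.56) was not called (adjusted p = 0.0608, edgeR). It was called in 6 of 19 alternatives, with adjusted p from 0.00305 to 0.0494 by edgeR, and was -3.02 without tumour 3. The 16 Cajal wells held 1 UMI. Telocytes held 0.305, 0.906, 0.582 and 0 per 10000, not called against other fibroblasts by marker groups (change 0.35, adjusted p = 0.838) but called by cluster groups (1.83, adjusted p = 0.000166), both by edgeR. The change turned negative with 1 marker more (-2.61, adjusted p = 0.0840, edgeR) and without tumour 2 (-0.26, adjusted p = 0.925, edgeR). In the cluster groups the telocyte levels were 0.2497, 1.28, 0.877 and 1.04, each above the 0.141, 0.258, 0.293 and 0.258 of the other fibroblasts.

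Pdgfc, which encodes the latent ligand PDGF-C and lies at chr3:81036416-81214040 on the plus strand (protein coding), was low outside smooth muscle. Fibroblast wells held 0.0404, 0.0844, 0.0839 and 0.0633 per 10000. Mural wells held 2.21, 0.0693, 0.508 and 0.372, so tumour 1 was high and tumour 2 no higher than its fibroblasts. All 19 mural UMIs of tumour 1 were in the 5 smooth muscle wells, 9 of them in 1 well. The log2 fold change of 2.27 (SE 0.63, edgeR) was called (adjusted p = 0.0290). Without tumour 1 the gene no longer passed the filter on low counts, and without tumour 3 or 4 the call was lost with changes of 2.19 and 2.23 (adjusted p = 0.185 and 0.108, edgeR). Smooth muscle wells held 36 of the 38 mural UMIs and pericyte wells 2. The change between them, -3.16 (SE 1.33), was not called (adjusted p = 0.366, edgeR). The cluster groups gave -4.41 (adjusted p = 0.00520, edgeR). Muscle interstitial wells held 0.188, 0.143 and 0.0900 per 10000, and the 16 Cajal wells 0, which allows up to 0.2504.

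Pdgfd, the gene of the latent PDGFRβ ligand PDGF-D (chr9:6168584-6378850, plus strand, protein coding), was close to the limit of detection. It gave 24 UMIs in the 740 wells, 22 of them in 17 fibroblast wells, and did not pass the filter on low counts. Its fibroblast levels were 0.0404, 0.0281, 0.0466 and 0.0181 per 10000. Pericyte wells held none, which allows up to 0.0704 per 10000, so a level like that of the fibroblasts could not have been told from absence at this depth.

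**Figure D4:**
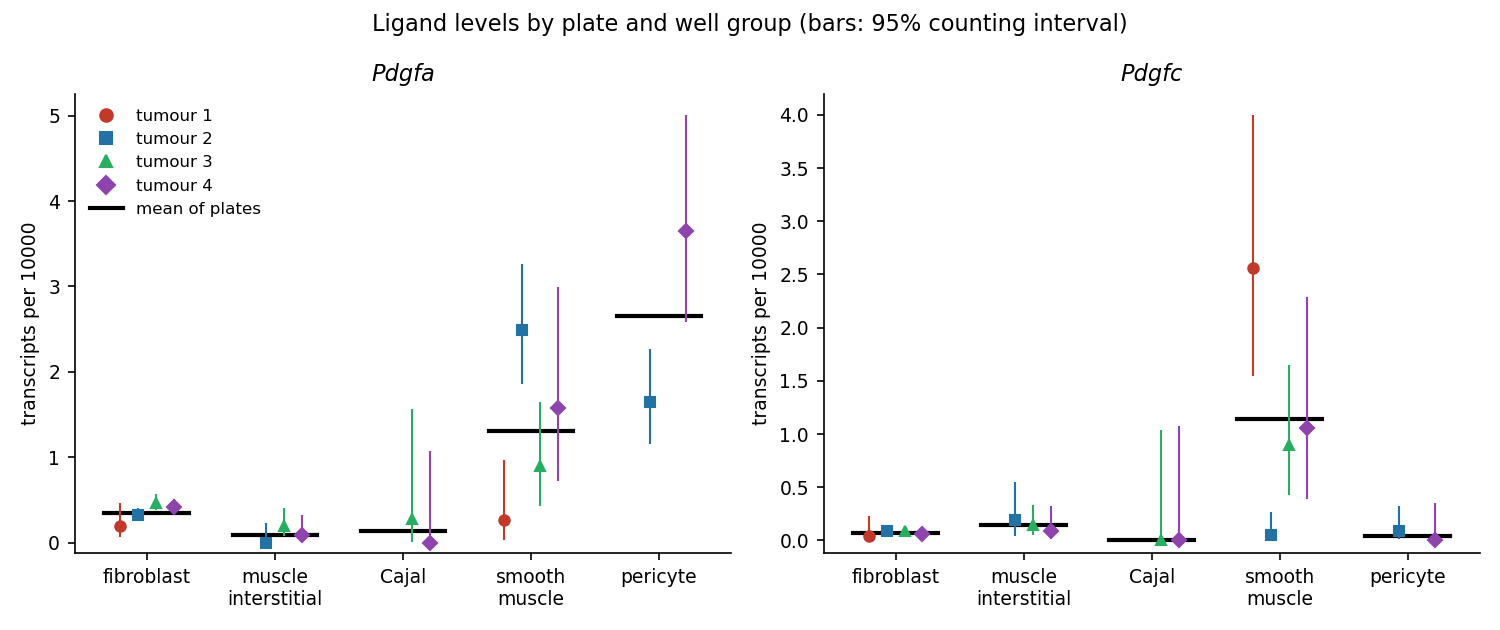
Levels of Pdgfa (left) and Pdgfc (right) in transcripts per 10000, on linear axes that differ between the panels, for 5 groups of wells. Points are plates with at least 5 wells, coloured by tumour, with 95% Poisson counting intervals, and black lines are means. Pdgfa is highest in mural groups, up to 3.65 in pericyte wells, and Pdgfc in smooth muscle wells of tumour 1 (2.56).

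**Figure D5:**
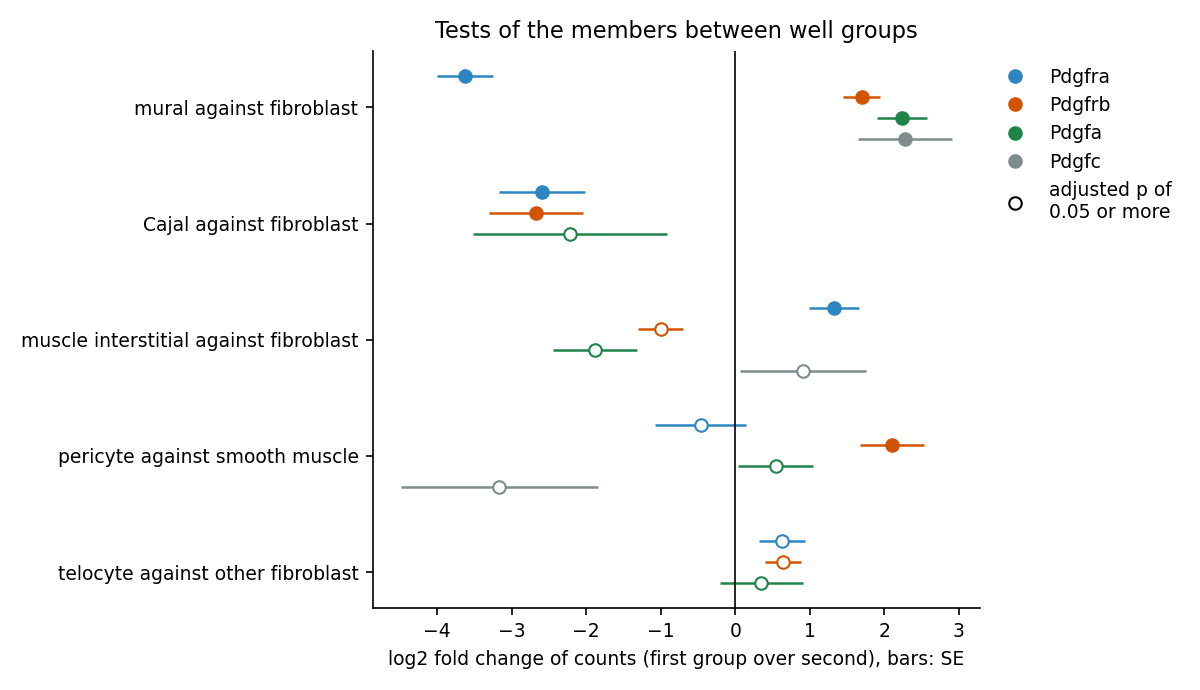
Log2 fold changes of the members that passed the filter on low counts (x axis, with standard errors derived from the test statistic) in 5 comparisons (y axis). Filled points have an adjusted p under 0.05 by edgeR; Pdgfc is left out for Cajal wells, which held none. Pdgfra and Pdgfrb lie on opposite sides of 0 for mural wells (-3.63 and 1.69) and on the same side for Cajal wells (-2.59 and -2.67).

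Of 32 other genes of the pathway, chosen as ligands, processing enzymes, co-receptors and signal carriers, 31 were found and 21 to 24 passed the filter. In mural against fibroblast wells, none of 24 was called higher and 2 lower, beside 5.17 and 6.49% of all genes, with a median log2 change of 0.05 beside -0.03 over all genes tested. Lrp1, an endocytic co-receptor, fell by 1.68 (SE 0.21, adjusted p = 7.68e-05, edgeR), from 7.86 ± 1.52 per 10000 in fibroblast to 2.67 ± 0.3299 in mural wells (n = 4 each). Sphk1, a sphingosine kinase, fell by 1.56 (adjusted p = 0.0159, edgeR). The Sphk1 call was lost in 3 of 19 alternatives, without tumour 2 (-1.65, adjusted p = 0.0703) or tumour 3 (-1.13, 0.144) and in a fit of the 2 groups alone (-1.55, 0.0513), all by edgeR. Lrp1 also fell in Cajal wells, by 1.72 (adjusted p = 0.00351, edgeR), and in telocytes against other fibroblasts, by 1.29 (adjusted p = 0.000305, edgeR).

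Cajal wells had 3 of 24 list genes lower and none higher, beside 6.25 and 2.9% of all genes, with a median of -0.20 beside -0.24. These were Lrp1, Sphk1, of which they held none, and Plat, the plasminogen activator that can cut PDGF-C, which fell by 3.42 (adjusted p = 0.0355, edgeR). The call of Plat was lost without the tumour as a block (-3.19, adjusted p = 0.191, edgeR). That of Sphk1 (adjusted p = 0.0439, edgeR) was lost without tumour 2 (0.0636), with RLE scaling (0.0584) and with DESeq2 (0.0617). Muscle interstitial wells had 1 higher, Pdgfrl, which encodes a secreted protein related to the receptors, and none lower of 24 (median 0.06 beside -0.05), where 3.4% of all genes were called higher and 2.94% lower. Pdgfrl was 0.438, 0.889 and 0.450 per 10000 there, against 0.127 ± 0.0661 in fibroblast wells (n = 4), a change of 1.95 (SE 0.54, adjusted p = 0.0450, edgeR). The call was lost in 4 of 15 alternatives: without tumour 3 (1.21, adjusted p = 0.461) or tumour 4 (2.29, 0.105), without the tumour as a block (1.99, 0.0826) and with DESeq2 (1.96, 0.0592). Pericytes against smooth muscle had 1 of 21 higher and none lower (median -0.10 beside -0.03), beside 0.166 and 0.298% of all genes. It was Nrp1, a co-receptor, at 2.90 and 6.35 per 10000 against 0.714 ± 0.406 (n = 4), a change of 2.74 (SE 0.48, adjusted p = 0.0103, edgeR), and the call was lost in a fit of these 2 groups alone (2.25, adjusted p = 0.207). Telocytes had 1 of 23 higher, Plau, a protease gene, by 2.23 (SE 0.57, adjusted p = 0.0217, edgeR), and Lrp1 lower (median -0.01 beside -0.03), where 3.47% of all genes were called higher and 3.81% lower. The call of Plau was lost in 5 of 19 alternatives: without tumour 2 (adjusted p = 0.0780), tumour 3 (0.257) or tumour 4 (0.0583), with 1 marker more (0.101) and with DESeq2 (0.0868), with changes of 1.85 to 2.47. Pdgfb, the ligand of endothelium, gave 12 UMIs in fibroblast and 14 in mural wells and was not tested.

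Genes whose levels ran most like each receptor were sought over the 13 sums of a plate and a group (fibroblast, mural, Cajal and muscle interstitial), as Pearson correlations of log2 library-scaled counts. The sums share plates and depth, so the values are descriptions. For Pdgfra they were Sh3bp5 (r = 0.968), Lamp2 (0.954), Fbln1 (0.951), Steap3 (0.942) and Dpt (0.941), of which Fbln1 and Dpt are fibroblast markers used in the grouping. Sh3bp5 had 0.416 ± 0.0919 per 10000 in fibroblast, 0.6245 ± 0.0508 in muscle interstitial and 0.0386 ± 0.0463 in mural wells. For Pdgfrb they included Pls3 (r = 0.961), Ptp4a3 (0.952), Ajuba (0.943) and Col4a1 (0.940). Col4a1, a basement membrane collagen chain, had 14.5 ± 1.43 per 10000 in fibroblast and 34.1 ± 14.7 in mural wells (n = 4 each). The receptors themselves correlated at r = -0.27 over the same 13 sums.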

How the data were processed

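Single cells sorted as cancer-associated fibroblasts from 4 tumours were read by SORT-seq with CEL-Seq2 libraries, per the labels' protocols, and BWA and mm10 were used, per the submitters' processing notes. Program versions and the counting program were not stated there. The deposited tables hold expected counts: UMIs which the authors corrected for the limited number of barcodes, since each value converts back to whole UMIs, out of 4096 possible ones, to within 0.00486. They were summed per plate and group (at least 5 wells) and rounded, with spike-ins left out. Sums were compared in joint fits by edgeR 4.0.16 (R 4.3.3) quasi-likelihood tests with TMM, filterByExpr, the tumour as a block and Benjamini-Hochberg adjustment over all genes tested. A joint fit shares its estimate of the spread over all groups. Each SE of an edgeR change was derived from its test, as the absolute change divided by the square root of the F statistic. DESeq2 1.42.0, Leiden clusters (scanpy 1.11.5) and other settings were alternatives. The fits were also run on simulated sums with the same spread for every gene. Such sums do not mimic counts that rest on single wells, so nothing about the calls is drawn from them.

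Wells were grouped by distinct markers: at least 5 for smooth muscle, pericyte and fibroblast, 3 for muscle interstitial, 4 for telocyte, and at least 3 transcripts each of Kit and Ano1 for Cajal. Of several groups met, that with the largest share of its list was taken. At the limit and 1 marker below it lay 20 and 22 wells for smooth muscle, 7 and 14 for pericyte, 30 and 61 for muscle interstitial, 27 and 42 for telocyte and 62 and 32 for fibroblast. These limits were set after marker counts, but no member's values by group, had been seen. The members and lists were chosen with earlier results of these data known. The text names the 5 members, pathway genes called (up to 6 per comparison, by size of change), and the 5 genes most like each receptor, of which 1 is not reported here. The number in the labels pairs sums because the same number is the same tumour. Intervals cover counting error only.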

Additional observations from a re-analysis of the deposited data

Results flagged for a closer look

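Over 30 sets of 4 plates examined for a plate far from the others, 4 were found, where chance gives about 1 in 20. Pdgfra in mural wells was 0.739 per 10000 in tumour 2, beside 0.348 to 0.372 in the other tumours. The 3 others concern Pdgfd, where 1 UMI in 1 plate stood against none in the rest: 0.0508 per 10000 in mural wells and 0.0898 in smooth muscle wells, which are the same UMI in tumour 3, and 0.102 in telocytes of tumour 1.

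Members were also present in wells that entered no comparison. The 683 wells under the transcript minimum held 43 Pdgfra, 14 Pdgfrb and 7 Pdgfa UMIs, each above the 3 counts that a count of 0 allows, and the 113 wells over the mitochondrial limit held 31, 11 and 9. Per 10000 transcripts Pdgfra came to 2.67 and 1.39 in these wells.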

How the results depend on the processing

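The changes of Pdgfra, Pdgfrb and Pdgfa between mural and fibroblast wells kept their direction and call in all 19 alternatives (-4.44 to -3.41, 1.43 to 2.002 and 2.01 to 2.41), and the balance differences of mural and muscle interstitial wells kept their direction in all 15, in designs too small to pass the threshold. Without the tumour as a replicate block, Pdgfra in muscle interstitial wells changed by 1.35 (adjusted p = 0.0662), and genes called fell from 369 to 213 there and from 373 to 245 for telocytes. Leaving out each tumour gave 1.27 to 1.38 for that Pdgfra change, 2.02 to 2.08 for Pdgfrb in pericytes, -0.00026 to 0.35 for Pdgfrl in mural wells (main 0.05), -0.26 to 0.95 for Pdgfa in telocytes, and 363 to 664 (main 679), 125 to 460 and 188 to 384 genes called for mural, muscle interstitial and telocyte wells. With DESeq2, Pdgfrb in Cajal wells changed by -2.51, Pdgfrl in mural wells by -0.0500, and 69 genes were called for pericytes (main 28). With no filter on low counts these were -1.13 for Pdgfrb in muscle interstitial wells (now called), -0.0721 for Pdgfrl, and 1093, 854 (main 533), 711, 172 and 673 genes for mural, Cajal, muscle interstitial, pericyte and telocyte wells. With Leiden groups, Pdgfrb changed by -1.01 in muscle interstitial and 1.24 in telocyte wells, both now called. They gave 727, 599 and 732 genes called for muscle interstitial, pericyte and telocyte wells, and balance differences of -42.2 for pericytes and -10.4 for telocytes. With only the groups compared, Pdgfrb changed by -0.92 in muscle interstitial wells (now called) and 1.94 in pericytes (call lost), with 426, 620 and 9 genes called for mural, muscle interstitial and pericyte wells. With 1 marker more, Pdgfrb changed by 1.99 in pericytes (call lost) and -0.30 in telocytes, Pdgfa by -2.61 in telocytes, 49 genes were called for pericytes and the telocyte balance differed by 8.17. With at least 10 wells, Pdgfrb in telocytes changed by 0.78 and was called. With at least 2000 transcripts, Pdgfrb in pericytes changed by 2.004 (call lost). The mean over wells gave a pericyte balance difference of -31.5. Chosen after seeing the data, at least 3 wells per sum gave 918 and 113 genes for Cajal cells and pericytes, and leaving out wells with the red cell gene Alas2 gave 1.97 for Pdgfrb in pericytes (call lost) and -0.10 for Pdgfrl. Another scaling (RLE) raised the median gene of Cajal wells by 0.17, with Pdgfra at -2.42 and Pdgfrb at -2.50 and both still called. For these changes the cause was not tested. Some alternatives left too few sums: Cajal wells could not be fitted without tumour 3 or 4, with at least 10 wells, at most 20% mitochondrial transcripts or without Alas2 wells, nor pericytes without tumour 2 or 4 or with at least 10 wells. Depth limits Pdgfd, Pdgfb, Pdgfc outside smooth muscle and all values of Cajal wells, which rest on 14 Pdgfra and 9 Pdgfrb UMIs in 4 plates.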
